A study of Homo sapiens with 4 samples.

Results

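The RNA of the cytochrome P450 genes was measured in cultures of Huh1 and Huh7, which are established lines of human hepatocellular carcinoma cells. The members were the rows whose gene symbol is CYP, a family number, a subfamily letter and a gene number. CYP51A1, a housekeeping enzyme of cholesterol synthesis that also matches, was left out. This gave 52 genes of the 18398 in the deposited tables. Cells of each line were transfected with 15 nM of NCsiRNA, a control with no target among human transcripts, or with CDCA8siRNA. The latter is directed at CDCA8 (borealin), a subunit of the chromosomal passenger complex that guides chromosome segregation. RNA was taken 48 h later from cells that carried no engineered allele and were all grown in the same serum-containing medium, and 1 library was sequenced for each line and siRNA, 4 in all. With 1 library per condition, the spread between repeated transfections could not be measured, and each line is 1 tumour-derived culture.

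Cytochromes P450 are heme enzymes that insert an oxygen atom into their substrate with electrons passed on by a reductase. The enzymes of families 1 to 3 oxidise mostly drugs, smoke constituents and other foreign compounds, and those of family 4 mostly oxidise fatty acids and eicosanoids. The remaining families make or break down bile acids, steroid hormones, vitamin D and retinoic acid. The liver is the main site of drug oxidation by P450 enzymes and of bile acid synthesis, and many P450 genes are known for low RNA in cultured hepatoma lines.

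The deposited values behave as RPKM, the reads of a transcript per kilobase of its length, scaled to the depth of the library, so that levels can be set side by side between genes. The value of a single read corresponds to between 12197606 and 13384836 reads per library, and between 2568 and 3169 genes were at 0. CDCA8 itself had 24.1 RPKM with NCsiRNA and 5.86 RPKM with CDCA8siRNA in Huh1, and 51.5 against 7.36 RPKM in Huh7, as the labels give it. All 7 hepatocyte markers had at least 1 RPKM in every library, as the label of a liver carcinoma calls for. The endothelial markers VWF and CDH5 were at or near 0 in all 4.

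P450 RNA was abundant in Huh1 and scarce in Huh7. With NCsiRNA, the levels of the 52 genes summed to 379 RPKM in Huh1 and 63.3 RPKM in Huh7, and with CDCA8siRNA to 389 and 65.8 RPKM. The sum was 5.99 times as high in Huh1 as in Huh7 with NCsiRNA and 5.91 times with CDCA8siRNA. The P450 genes made up 0.0817% and 0.0856% of all RPKM in the Huh1 libraries and 0.015% and 0.0158% in the Huh7 libraries. The 2 siRNAs of a line thus lay close together and the lines far apart.

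A level of 1 RPKM was reached by 22 members in each Huh1 library, by 10 in Huh7 with NCsiRNA and by 12 in Huh7 with CDCA8siRNA. At least 10 RPKM were measured for 9 and 11 members in Huh1 and for 1 in each Huh7 library. The lines also differed in which gene led. In Huh1 with NCsiRNA the highest were CYP4F11 at 62.6, CYP2B6 at 54.9 and CYP4F3 at 46.3 RPKM, and with CDCA8siRNA they were CYP24A1 at 64.4, CYP4F11 at 59.7 and CYP2B6 at 47.9 RPKM. In Huh7 with NCsiRNA they were CYP26B1 at 18.1, CYP1A1 at 8.55 and CYP2R1 at 7.80 RPKM. Each library drew most of its P450 RNA from few genes, with 62.6% to 69.4% of the sum in its 5 highest.

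**Figure D1:**
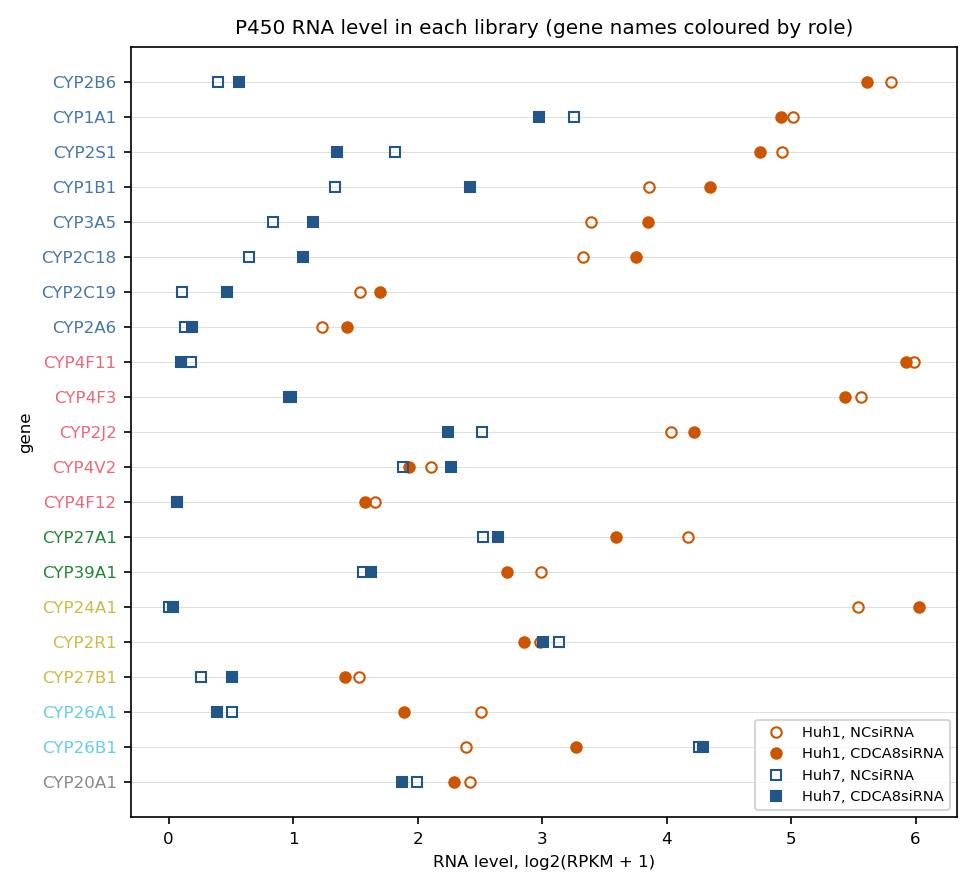
RNA level of 21 of the 22 P450 genes that reached 1 RPKM in some library, as log2(RPKM + 1), 1 point per library and no error bar since each condition has 1 library. Gene names are coloured by role as in the plot of summed RNA. Circles (Huh1) lie to the right of squares (Huh7) in most rows, CYP26B1 is the other way round, and CYP2R1, CYP4V2 and CYP20A1 have all 4 points close together.

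The sums by role show where the lines parted. Drug and xenobiotic genes of families 1 to 3 summed to 156 RPKM in Huh1 and 16.3 RPKM in Huh7 with NCsiRNA, a ratio of 9.60. Fatty acid and eicosanoid genes summed to 130 and 9.06 RPKM, a ratio of 14.4. Vitamin D genes summed to 54.3 and 8.0 RPKM, a ratio of 6.79, and bile acid and oxysterol genes to 24.1 and 6.89 RPKM, a ratio of 3.50. The retinoid sum went the other way, with 9.27 RPKM in Huh1 and 19.3 RPKM in Huh7. Of the latter, CYP26B1 held 18.1 RPKM, while CYP26A1 was higher in Huh1, at 4.69 against 0.426 RPKM. In the vitamin D sums, CYP24A1 held 45.5 RPKM in Huh1 and CYP2R1 held 7.80 RPKM in Huh7. The 5 steroid hormone genes stayed below 1 RPKM in sum in each library.

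**Figure D2:**
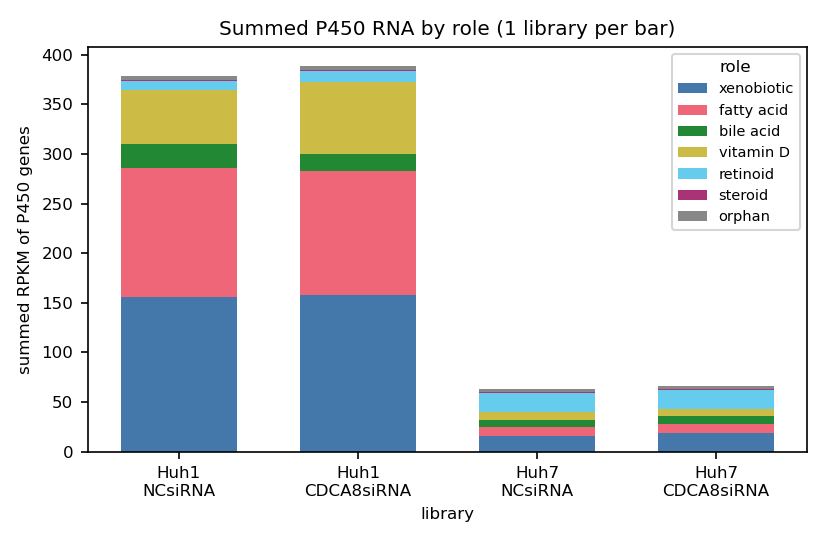
Summed RPKM of the 52 P450 genes in each library, stacked by role, 1 library per bar. The Huh1 bars reach 379 and 389 RPKM and the Huh7 bars 63.3 and 65.8 RPKM, and the retinoid part is the tallest in both Huh7 bars.

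The lines were compared gene by gene as the difference of log2(RPKM + 1), Huh7 minus Huh1, at the same siRNA. A gene was counted as 2-fold different at an absolute difference of at least 1, among genes that reached 1 RPKM in either library compared. With NCsiRNA, 18 of the 52 P450 genes were 2-fold lower in Huh7, where 10.2% of all genes so compared were 2-fold lower, and 1 was 2-fold higher, where 17.0% of all genes were. With CDCA8siRNA, 16 were 2-fold lower (10.1% of all genes) and 1 was 2-fold higher (17.4% of all genes). Of the 52 members, 22 had the 1 RPKM that the comparison requires in each case. All 22 reached it in Huh1, and 10 with NCsiRNA and 12 with CDCA8siRNA also in Huh7. The minimum thus favours genes that are higher in Huh1, and the counts are no evidence of a direction of their own. Without any minimum, the median difference of all 52 members was -0.13 with NCsiRNA and -0.05 with CDCA8siRNA. Over all 18398 genes the median was 0.01 and 0.02. In Huh7, 31 members were lower and 16 higher with NCsiRNA, while 37.2% of all genes were lower and 51.6% higher.

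A linear model (limma) with cell line and siRNA as terms was fitted to the 4 libraries over 12148 genes. For the line term the 2 libraries of a line stand in as repeats, so the test measures the line difference against how unevenly the siRNA acted in the 2 lines, with 1 residual degree of freedom eased by the spread over all genes. Of the 22 P450 genes tested, limma called 19 lower in Huh7, where it called 28.7% of all genes lower, and 1 higher, where it called 42.5% higher. All 22 reached the minimum of 1 RPKM in Huh1 and fewer did in Huh7, so this count is no evidence of a direction either. With a minimum of 1 RPKM in each line, which 12 members reached, limma called 9 members lower and 1 higher. At that minimum it called 7016 of all genes lower or higher. Their share by direction was not counted, so this count is not set against all genes. CYP2R1 and CYP4V2 were the members of the 22 not called. With no minimum level, CYP20A1, CYP26B1, CYP27A1, CYP27B1 and CYP39A1 were not called either (limma adjusted p from 0.0513 to 0.0983). Error bars below come from the number of reads behind each value and cover counting error only.

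**Figure D3:**
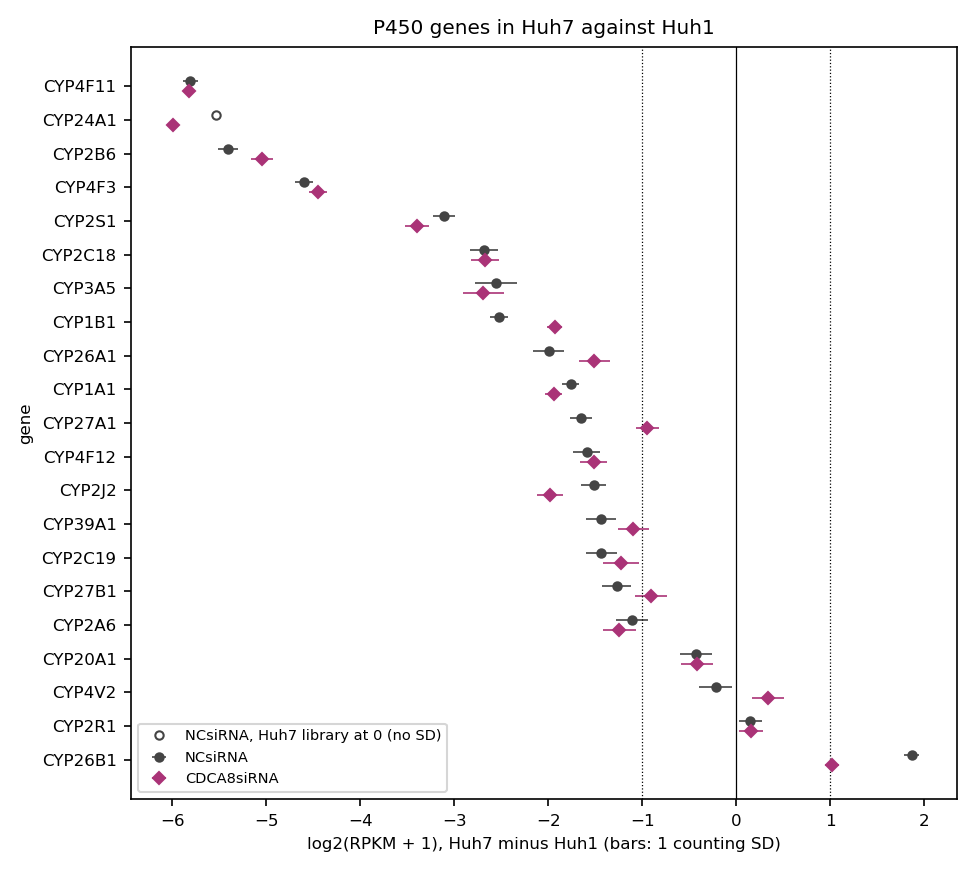
Difference of log2(RPKM + 1), Huh7 minus Huh1, for 21 P450 genes with NCsiRNA (circles) and with CDCA8siRNA (diamonds), bars being 1 counting SD and dotted lines 2-fold. CYP4F11, CYP24A1, CYP2B6 and CYP4F3 lie beyond -4 with both siRNAs, and CYP26B1 lies at 1.87 and 1.02.

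The fatty acid genes included some of the widest gaps. CYP4F11, an omega-hydroxylase of fatty acids and vitamin K, had 62.6 and 59.7 RPKM in the Huh1 libraries with NCsiRNA and CDCA8siRNA and 0.134 and 0.0684 RPKM in the Huh7 libraries. The Huh7 values rest on about 5 and 3 reads, against 2650 and 2490 reads in Huh1. The limma difference was -5.82 on the log2 scale (SE 0.11, adjusted p = 2.36e-09). CYP4F3, the leukotriene B4 omega-hydroxylase, had 46.3 and 42.3 RPKM in Huh1 and 0.950 and 0.973 RPKM in Huh7, which was 48.7 times and 43.4 times as much in Huh1 (limma adjusted p = 7.56e-09). The Huh1 values stood far above the Huh7 values for both genes, and the siRNAs differed little. CYP4F12, which also hydroxylates arachidonic acid, had 2.15 and 1.99 RPKM in Huh1 and about 1 read in each Huh7 library. Its difference was -1.55 (SE 0.18, limma adjusted p = 5.96e-05).

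These genes are neighbours. In GRCh38 and GENCODE release 29 the CYP4F genes lie in the order CYP4F22, CYP4F3, CYP4F12, CYP4F2 and CYP4F11 within 426 kb of chromosome 19 (15508493 to 15934867). The 5 genes of the cluster summed to 112 RPKM in Huh1 and 1.21 RPKM in Huh7 with NCsiRNA, 92.2 times as much in Huh1, and 105 and 1.10 RPKM with CDCA8siRNA. Within the cluster the genes were not alike in Huh1: CYP4F2, the main vitamin K hydroxylase of liver, had only 0.608 and 0.591 RPKM there, and CYP4F22, a ceramide synthesis enzyme of skin, was at 0. How closely the expressed members resemble each other is seen at the codon of the cysteine that binds the heme iron. It is given in capitals with the 21 bases before it and the 6 after it, from the GENCODE 29 transcripts, because reads from such stretches can be placed on a neighbour.
CYP4F2: ttctcggcagggcccaggaacTGCatcggg
CYP4F3: ttctcagcagggcccaggaacTGCatcggg
CYP4F11: ttctcggcagggcccagaaacTGCatcggg
CYP4F12: ttctccgcagggcccaggaacTGCatcggg
Any pair of these stretches differs at 1 or 2 of the 30 bases. Over the whole transcript the likeness is smaller: 17.2% of the 50-base stretches of CYP4F2 also occur in CYP4F3 and 8.10% the other way round, while for CYP4F11 0.868% occur in any other member. The low values of CYP4F2 are therefore less certain than the high ones of CYP4F11, and how the authors placed reads that align more than once is not given in the sources used here.

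CYP2J2, an arachidonic acid epoxygenase, was present in both lines and higher in Huh1, with 15.4 and 17.6 RPKM in Huh1 and 4.72 and 3.73 RPKM in Huh7 (limma difference -1.75, adjusted p = 5.57e-06). CYP4V2, a fatty acid hydroxylase mutated in a corneal and retinal dystrophy, had 3.30 and 2.80 RPKM in Huh1 and 2.70 and 3.81 RPKM in Huh7. The values of the lines overlapped, and limma did not call a difference (0.06, adjusted p = 0.754). The other fatty acid genes were scarce everywhere. The 5 genes of the CYP4A, CYP4B, CYP4X and CYP4Z cluster on chromosome 1, which hold the medium-chain omega-hydroxylase CYP4A11, summed to at most 0.102 RPKM in any library.

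Of the 20 xenobiotic members, 9 had the 1 RPKM that the comparison requires. All 9 were 2-fold lower in Huh7 with each siRNA (10.2% of all genes with NCsiRNA and 10.1% with CDCA8siRNA). All 9 reached the minimum in each Huh1 library, but only 3 in Huh7 with NCsiRNA and 5 with CDCA8siRNA. The minimum thus favours genes that are higher in Huh1, and this count is no evidence of a direction of its own. CYP2B6, which oxidises bupropion and cyclophosphamide and is induced through the receptor CAR, had 54.9 and 47.9 RPKM in Huh1 and 0.315 and 0.478 RPKM in Huh7. That was 174 times as much in Huh1 with NCsiRNA and 100 times as much with CDCA8siRNA (limma adjusted p = 7.32e-09). In its transcript 10% of the 50-base stretches also occur in the pseudogene CYP2B7P, so part of its reads may have another source. CYP2S1, an extrahepatic enzyme inducible by dioxin, had 29.4 and 26.0 RPKM in Huh1 and 2.53 and 1.56 RPKM in Huh7, 11.6 and 16.7 times as much in Huh1 (limma adjusted p = 6.99e-08). CYP2A6, the nicotine oxidase, had 1.36 and 1.70 RPKM in Huh1 and only about 2 and 3 reads in Huh7. Since 33.0% of its 50-base stretches also occur in CYP2A7, its level is uncertain.

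The 3 genes just named belong to a cluster of 6 members on chromosome 19 (40843538 to 41207539, GRCh38). The cluster summed to 86.4 and 76.3 RPKM in Huh1 and 3.16 and 2.44 RPKM in Huh7. CYP2A13, an enzyme of the airways, was at 0 in all 4 libraries, and CYP2A7 and CYP2F1 stayed below 1 RPKM.

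In the CYP2C cluster, CYP2C18 had 9.05 and 12.5 RPKM in Huh1 and 0.565 and 1.12 RPKM in Huh7 (limma difference -2.68, SE 0.13, adjusted p = 3.07e-07). CYP2C19, the enzyme of omeprazole and clopidogrel metabolism, had 1.90 and 2.25 RPKM in Huh1 and 0.0742 and 0.387 RPKM in Huh7 (limma adjusted p = 0.000145). CYP2C8, the paclitaxel hydroxylase, was lower, with 0.505 and 0.565 RPKM in Huh1 and 0 and 0.170 RPKM in Huh7. The cluster lies within 386 kb of chromosome 10 (94683621 to 95069497, GRCh38), and 2 of its members are shown at the same cysteine codon, in capitals, for the same reason.
CYP2C8: ttctcagcaggaaaacgaattTGTgcagga
CYP2C18: ttctcagcaggaaaacggatgTGTatggga
These stretches differ at 5 of the 30 bases. Across the transcript 11.8% of the 50-base stretches of CYP2C19 and 2.72% of those of CYP2C8 also occur in another member, against 0.802% of those of CYP2C18. The CYP2C19 values therefore may hold reads of a neighbour, and those of CYP2C18 hardly can.

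The CYP3A cluster on chromosome 7 was carried by CYP3A5, a drug and steroid oxidase, with 9.50 and 13.4 RPKM in Huh1 and 0.787 and 1.24 RPKM in Huh7 (limma difference -2.62, adjusted p = 3.36e-07). Its row is a short transcript of 1105 bases. CYP3A4, the main drug-oxidising P450 of adult liver, stayed between 0.0115 and 0.125 RPKM in the 4 libraries, about 4 reads at most. CYP3A7, its fetal counterpart, stayed between 0.144 and 0.631 RPKM.

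The dioxin-responsive family 1 was present in both lines. CYP1A1, which oxidises polycyclic aromatic hydrocarbons, had 31.4 and 29.3 RPKM in Huh1 and 8.55 and 6.88 RPKM in Huh7 (limma difference -1.85, SE 0.10, adjusted p = 8.77e-07). CYP1B1, an oxidase of oestrogens and aromatic hydrocarbons, had 13.5 and 19.4 RPKM in Huh1 and 1.53 and 4.35 RPKM in Huh7. That was 8.87 times as much in Huh1 with NCsiRNA and 4.46 times with CDCA8siRNA (limma adjusted p = 2.69e-06). CYP1A2, the caffeine demethylase, which in adult liver is the abundant member, had about 4 reads at most in any library. AHR, the receptor that drives this family, had 27.1 and 29.8 RPKM in Huh1 and 33.2 and 35.1 RPKM in Huh7 (limma difference 0.26, adjusted p = 0.0329). The median line difference of all genes compared was 0.15 with NCsiRNA and 0.14 with CDCA8siRNA, and limma called 42.5% of all genes higher in Huh7. A link between AHR and the levels of this family was not tested. The core letters of the element that AHR binds, GCGTG, occur upstream of a CYP1A1 start in the RefSeq promoter table (GRCh38.p14). In GENCODE release 29 the gene spans 74719542 to 74725610, so the stretch shown lies within it there. The stretch is chr15:74725562-74725591 on the minus strand, with the core in capitals from base -57 relative to the RefSeq start.
CYP1A1: aaggagGCGTGgccacacgtacaagcccgc
The same 5 letters, on either strand, occur in 36.5% of the 35116 promoters of 300 bases and in 12 of the 36 members with an entry, so the match does not single out CYP1A1.

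Of the bile acid genes, only those of the alternative pathway were measured above 1 RPKM. CYP27A1, the mitochondrial sterol 27-hydroxylase, had 17.1 and 11.1 RPKM in Huh1 and 4.76 and 5.26 RPKM in Huh7 (limma difference -1.30, SE 0.16, adjusted p = 0.000113). CYP39A1, the 24-hydroxycholesterol 7-alpha-hydroxylase, had 6.97 and 5.57 RPKM in Huh1 and 1.95 and 2.08 RPKM in Huh7 (limma adjusted p = 5.35e-05). Values of the lines did not overlap for either gene. CYP7A1, the rate-limiting enzyme of the classical pathway, and CYP8B1, which directs synthesis to cholic acid, had at most about 2 and 3 reads in any library. CYP7B1, the oxysterol 7-alpha-hydroxylase, was at 0 in Huh1 and at 0.171 and 0.0681 RPKM in Huh7.

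Vitamin D genes split by enzyme. CYP24A1, which degrades active vitamin D, had 45.5 and 64.4 RPKM in Huh1, while it was listed at 0 in Huh7 with NCsiRNA and had about 1 read in Huh7 with CDCA8siRNA. The limma difference on the log2(RPKM + 1) scale was -5.77 (SE 0.14, adjusted p = 6.98e-09), a value whose size depends on the added 1 RPKM. CYP27B1, the activating 1-alpha-hydroxylase, had 1.89 and 1.68 RPKM in Huh1 and 0.198 and 0.426 RPKM in Huh7 (limma adjusted p = 0.000645). CYP2R1, the vitamin D 25-hydroxylase of liver, was alike in both lines, with 6.93 and 6.23 RPKM in Huh1 and 7.80 and 7.05 RPKM in Huh7. The gap of 0.15 between the lines had an SE of 0.11 (limma adjusted p = 0.243). VDR, the receptor that induces CYP24A1, was at or below 0.281 RPKM in all 4 libraries.

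The retinoid genes ran in opposite directions. CYP26A1 and CYP26B1 both break down retinoic acid. CYP26A1 had 4.69 and 2.72 RPKM in Huh1 and 0.426 and 0.308 RPKM in Huh7, 11.0 and 8.83 times as much in Huh1 (limma difference -1.75, adjusted p = 2.92e-05). CYP26B1 had 4.24 and 8.67 RPKM in Huh1 and 18.1 and 18.6 RPKM in Huh7, and was the only member that limma called higher in Huh7 (1.44, SE 0.18, adjusted p = 0.000109). With CDCA8siRNA its line difference of 1.02 lay just beyond 2-fold, and it fell short of 2-fold when the libraries were rescaled to a common upper quartile or quantile-normalized. Where the promoter table has 2 starts for CYP26A1, a direct repeat of retinoic acid receptor half-sites spaced by 5 bases (DR5) precedes 1 of them, on the opposite strand within chr10:93073797-93073826 (GRCh38.p14), in capitals and from base -90.
CYP26A1: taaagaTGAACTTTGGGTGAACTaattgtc
This window lies in the untranslated first exon of the transcript that begins at the other start. A DR5 on either strand occurs in 0.342% of the 35116 promoters and in 1 of the 36 members with an entry. CYP26B1 had none in its window of 300 bases. CYP26C1 and CYP27C1, the latter a retinol desaturase, stayed below 0.5 RPKM.

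CYP20A1, an orphan P450 with no established substrate, was the most even of the called genes, with 4.35 and 3.91 RPKM in Huh1 and 2.98 and 2.68 RPKM in Huh7 (limma difference -0.42, adjusted p = 0.0162). The steroid hormone genes were scarce. CYP19A1, the aromatase, had between 0.242 and 0.757 RPKM. CYP11A1, the side-chain cleavage enzyme, had 0.425 and 0.169 RPKM in Huh7 and 0 in Huh1, and CYP17A1 had about 2 and 3 reads in Huh7 and none in Huh1.

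Markers of cell type also moved with the line. Hepatocyte markers summed to 4360 and 3370 RPKM in Huh1 and to 2490 and 1770 RPKM in Huh7, most of it ALB in Huh1. Of the 7, limma called 5 lower and 2 higher in Huh7 (28.7% and 42.5% of all genes). The higher ones were AFP, a marker of fetal liver and hepatoma, with 24.8 and 27.5 RPKM in Huh1 and 865 and 715 RPKM in Huh7, and TTR, the thyroxine carrier, with 5.10 and 4.49 RPKM in Huh1 and 29.3 and 48.5 RPKM in Huh7. The biliary marker KRT7 had 84.4 and 81.7 RPKM in Huh1 and 0.660 and 0.572 RPKM in Huh7, while KRT19 and SOX9 were higher in Huh7. The 4 stellate or fibroblast markers summed to 0.168 and 0.170 RPKM in Huh1 and to 139 and 183 RPKM in Huh7, all but a trace of it from COL1A1 and COL1A2, since DCN and PDGFRB stayed below 0.5 RPKM. The leukocyte markers summed to 23.3 and 16.5 RPKM in Huh1 and 3.84 and 4.31 RPKM in Huh7, nearly all from CD68, with PTPRC and CD3E below 0.5 RPKM. The part of these differences in the P450 levels was not tested, and in bulk RNA fewer expressing cells and less RNA per cell cannot be told apart.

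Few P450 genes were counted as 2-fold different between the siRNAs, and few of all genes were. Of the 52 members, 22 in Huh1 and 12 in Huh7 had the 1 RPKM that the count requires. In Huh1 none of the 22 was 2-fold higher or lower than with NCsiRNA, where 0.32% and 0.174% of all genes compared were. In Huh7 1 of the 12 was 2-fold higher (0.873% of all genes) and none was 2-fold lower (0.7% of all genes). With so few members, these counts do not set the P450 genes apart from all genes. The median change of the 52 members was 0 in each line, as it was over all genes. The log2 changes of the 22 genes that reached 1 RPKM lay between -0.61 and 0.88 in Huh1 and between -0.47 and 1.08 in Huh7. In the limma fit, the siRNA term sets the mean change of both lines against how unevenly they changed. By this term CYP1B1 was called higher (3.74% of all genes were) and no member was called lower (2.65% of all genes were). At an unadjusted p under 0.05 there were 5 of the 22 members, CYP1B1, CYP2C18, CYP3A5, CYP26B1 and CYP2S1, a share near that of all genes (22.8%).

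**Figure D4:**
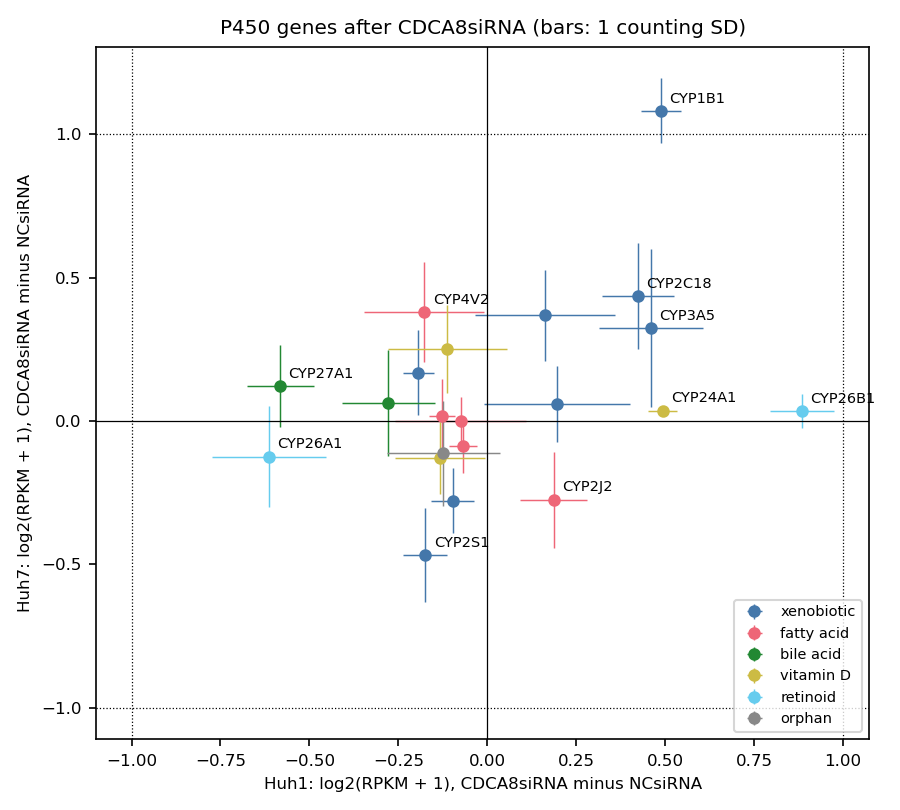
Change of log2(RPKM + 1) after CDCA8siRNA in Huh1 (horizontal) and Huh7 (vertical) for 21 P450 genes, coloured by role, bars being 1 counting SD and dotted lines 2-fold. CYP1B1 lies beyond 2-fold in Huh7 at 1.08, CYP26B1 lies far right at 0.88 and near 0 in Huh7, and CYP27A1 and CYP26A1 lie to the left at -0.58 and -0.61.

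CYP1B1 rose in both lines. In Huh1 it had 13.5 RPKM with NCsiRNA and 19.4 RPKM with CDCA8siRNA, 143% of the control. In Huh7 it had 1.53 and 4.35 RPKM, 285% of the control. About 952, 1344, 98 and 280 reads stood behind these 4 values. The log2 changes were 0.49 (counting SD 0.06) in Huh1 and 1.08 (counting SD 0.11) in Huh7, and the limma coefficient was 0.79 (SE 0.15, adjusted p = 0.023). The gap between the lines was 0.59, 4.70 times its counting SD, which leaves out the spread between cultures. Even after CDCA8siRNA the Huh7 level stayed below that of Huh1 with NCsiRNA. CYP1A1, which AHR also drives, had changes of -0.10 in Huh1 and -0.28 in Huh7 (limma adjusted p = 0.334). The call for CYP1B1 depended on the fit: its adjusted p ranged from 0.00222 to 1.0 over 8 alternatives and stayed under 0.05 in 5 of them. CYP1B1 lies on chromosome 2 (38066973 to 38109902, GRCh38), and none of its 50-base stretches occurs in another member.

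CYP26B1 had 4.24 RPKM with NCsiRNA and 8.67 RPKM with CDCA8siRNA in Huh1, 204% of the control, on about 269 and 541 reads. In Huh7 it had 18.1 and 18.6 RPKM, 103% of the control. The log2 changes were 0.88 (counting SD 0.09) and 0.04 (counting SD 0.06), and limma did not call the change over both lines (0.46, adjusted p = 0.171). The gap of -0.85 between the lines was the widest of the 22 genes, and divided by its counting SD it came to -7.85. The difference between the lines has no test beyond counting error.

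CYP27A1 had 17.1 and 11.1 RPKM in Huh1, 64.9% of the control, and 4.76 and 5.26 RPKM in Huh7, 111% of the control. Its log2 changes were -0.58 (counting SD 0.09) and 0.12 (counting SD 0.14), 0.70 apart, and limma called no change over both lines (adjusted p = 0.447). CYP26A1 went from 4.69 to 2.72 RPKM in Huh1, 58.0% of the control, on about 133 and 76 reads. In Huh7 it went from 0.426 to 0.308 RPKM, on about 11 and 8 reads (limma adjusted p = 0.257). In Huh1 the retinoid pair thus had values on opposite sides of the control, and neither reached 2-fold on the log2(RPKM + 1) scale.

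CYP24A1 had 45.5 and 64.4 RPKM in Huh1, 142% of the control, a log2 change of 0.49 (counting SD 0.04), and in Huh7 it had at most about 1 read. In the CYP2C cluster CYP2C8, CYP2C18 and CYP2C19 had higher values with CDCA8siRNA in each line. CYP2C18 had 138% of the control in Huh1 and 198% in Huh7, with a limma coefficient of 0.43 (SE 0.13, adjusted p = 0.0846). The Huh7 values of CYP2C19 and CYP2C8 rest on few reads, about 2 and 9 for CYP2C19 and 0 and 4 for CYP2C8. Their Huh1 changes of 0.16 (counting SD 0.20) for CYP2C19 and 0.06 (counting SD 0.19) for CYP2C8 were within counting error. CYP3A5 had 141% of the control in Huh1 and 157% in Huh7 (limma adjusted p = 0.109). CYP24A1, CYP2C18, CYP2C19 and CYP3A5 were tested by limma and none was called, while CYP2C8 lay below the minimum and was not tested. CYP2S1 had 88.2% of the control in Huh1 and 61.4% in Huh7 (limma coefficient -0.32, adjusted p = 0.154).

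Differences were small for the 3 highest genes of Huh1 with NCsiRNA. In Huh1, CYP4F11 changed by -0.07 (counting SD 0.04), CYP4F3 by -0.13 (counting SD 0.04) and CYP2B6 by -0.19 (counting SD 0.04) on the log2 scale. In Huh7 their changes were -0.09, 0.02 and 0.17. The limma coefficients over both lines, in which opposite changes offset each other, had adjusted p-values of 0.727, 0.812 and 0.962. The Huh1 changes alone had no test beyond counting error. CYP2R1 changed by -0.13 in each line and CYP20A1 by -0.12 and -0.11, within 1 counting SD or little more. Hepatocyte markers moved with the siRNA at the same time: limma called 5 of the 7 lower and none higher (2.65% and 3.74% of all genes), among them ALB, which had 3447 and 2684 RPKM in Huh1 and 1166 and 720.7 RPKM in Huh7. Only 3 biliary, 2 fibroblast and 1 leukocyte markers could be tested, and none was called for the siRNA. That is too few to set against the shares of all genes. The part of this in the P450 values was not tested.

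The genes that serve the P450 enzymes were present in both lines. All 10 electron donor and heme genes had at least 1 RPKM in every library, and limma called 6 of them lower and 2 higher in Huh7 (28.7% and 42.5% of all genes). POR, the reductase that passes electrons to the P450 enzymes of the endoplasmic reticulum, had 99.3 and 79.5 RPKM in Huh1 and 31.7 and 31.2 RPKM in Huh7 (limma difference -1.47, adjusted p = 2.75e-06). CYB5A, cytochrome b5, had 59.1 and 46.0 RPKM in Huh1 and 27.3 and 23.8 RPKM in Huh7, and CYB5R3, the b5 reductase, was higher in Huh7, with 105 and 111 RPKM against 32.3 and 35.1 RPKM. For the mitochondrial chain of CYP27A1, CYP24A1 and CYP27B1, FDX1 (adrenodoxin) was lower and FDXR, its reductase, higher in Huh7, with limma differences of -0.77 and 0.52. ALAS1, the first enzyme of heme synthesis, was lower in Huh7 by limma (-0.73, adjusted p = 0.000104).

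HMOX1, which breaks heme down, was the only gene of that list called for the siRNA. It rose with CDCA8siRNA, with 206 and 283 RPKM in Huh1 and 6.39 and 16.2 RPKM in Huh7 (limma coefficient 0.83, SE 0.16, adjusted p = 0.0216). It was also far higher in Huh1 than in Huh7 (limma difference -4.43, adjusted p = 5.62e-08).

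**Figure D5:**
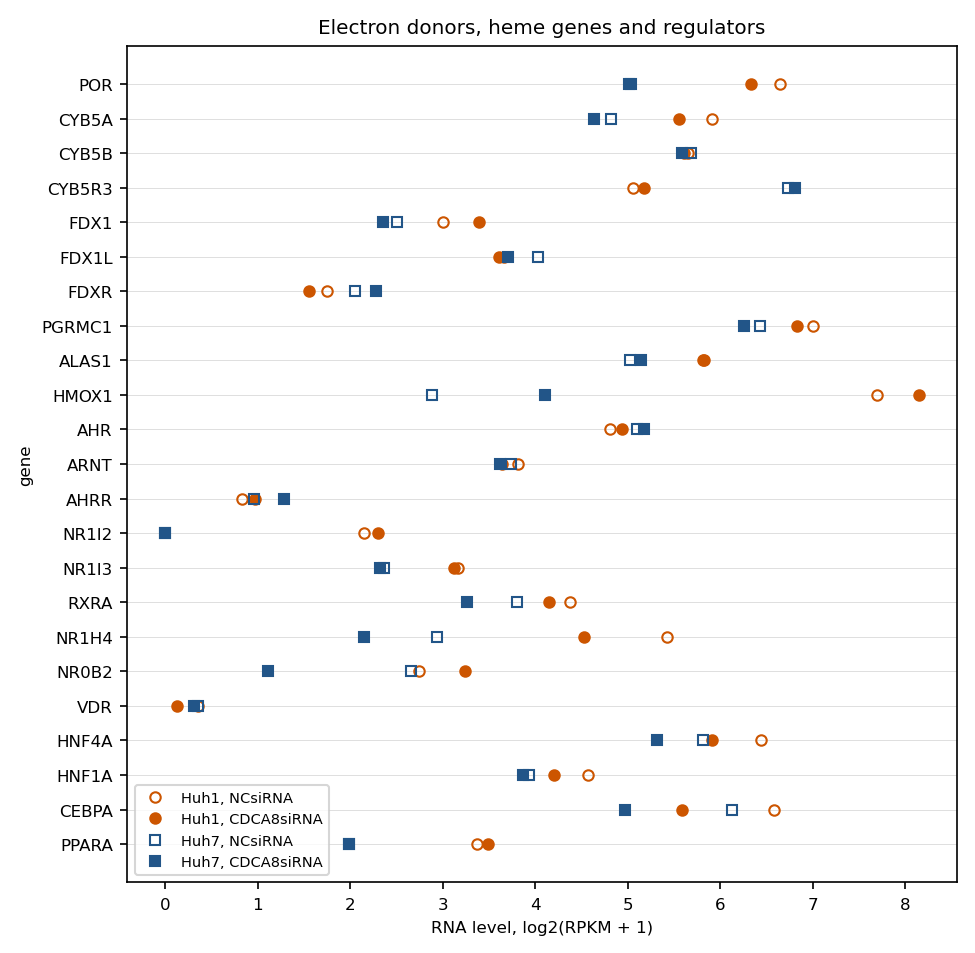
RNA level, as log2(RPKM + 1), of 10 electron donor and heme genes and 13 regulators of P450 genes, 1 point per library. HMOX1 has the widest gap between the lines, NR1I2 is at 0 in both Huh7 libraries, and for CEBPA and NR1H4 the filled symbol (CDCA8siRNA) lies left of the open one (NCsiRNA) in each line.

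Of the 13 regulators, 12 could be tested, and limma called 9 lower and 1 higher in Huh7 (28.7% and 42.5% of all genes). NR1I2 (PXR), the xenobiotic sensor that induces CYP3A4, CYP2B6 and CYP2C genes, had 3.43 and 3.92 RPKM in Huh1 and was listed at 0 in both Huh7 libraries. NR1I3 (CAR), the other sensor of that kind, had 8.01 and 7.74 RPKM in Huh1 and 4.16 and 4.01 RPKM in Huh7 (limma adjusted p = 0.00027). PPARA, the fatty acid receptor that induces CYP4A genes, had 9.36 and 10.2 RPKM in Huh1 and 2.96 and 2.97 RPKM in Huh7 (limma adjusted p = 8.11e-06). AHR was the regulator called higher. The P450 genes and these regulators were measured in the same 4 libraries, and no link between them was tested.

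With CDCA8siRNA, limma called 3 of the 12 regulators lower and none higher (2.65% and 3.74% of all genes). CEBPA, a liver transcription factor, had 94.4 and 47.2 RPKM in Huh1 and 68.9 and 30.3 RPKM in Huh7 (limma coefficient -1.07, SE 0.09, adjusted p = 0.00196). NR1H4 (FXR), the bile acid receptor, had 41.9 and 22.1 RPKM in Huh1 and 6.66 and 3.44 RPKM in Huh7 (-0.84, SE 0.10, adjusted p = 0.00495). HNF4A, which sets the hepatocyte programme, had 86.1 and 59.1 RPKM in Huh1 and 55.4 and 38.8 RPKM in Huh7 (-0.52, adjusted p = 0.0146), and it is also on the list of hepatocyte markers. NR0B2 (SHP), which FXR induces and which represses CYP7A1, had 5.70 and 8.47 RPKM in Huh1 and 5.29 and 1.16 RPKM in Huh7, and limma did not call it (adjusted p = 0.451). Of the 2 P450 enzymes with other symbols, PTGIS, the prostacyclin synthase, had 1.57 and 1.64 RPKM in Huh1 and was called lower in Huh7 (limma adjusted p = 0.000216), and TBXAS1, the thromboxane synthase, stayed below 0.5 RPKM.

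The remaining 30 members stayed below 1 RPKM in every library. CYP11B1, CYP2A13 and CYP4B1 were at 0 in all 4, which at these depths does not show that they were absent. CYP2D6, the oxidase of codeine and many antidepressants, was the highest of the 30. It had 0.315 and 0.868 RPKM in Huh1 and 0.0988 and 0.934 RPKM in Huh7, on about 7, 19, 2 and 19 reads, so it lay just under the minimum of 1 RPKM and was in none of the counts that require it. Its values were higher with CDCA8siRNA in each line, and 38.2% of its 50-base stretches also occur in the pseudogene CYP2D7. CYP2E1, the ethanol-oxidising P450 that is abundant in liver, had 0.224 and 0.114 RPKM in Huh1 and 0.443 and 0.685 RPKM in Huh7, about 14 reads at most. Of the 30, 23 stayed below 0.5 RPKM throughout.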

How the data were processed

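Huh1 and Huh7 RNA was sequenced in 4 libraries, prepared with the Illumina TruSeq RNA kit, and mapped to groups by their titles. RPKM values, as deposited by the authors, appear to be made by counting reads per RefSeq transcript and dividing by transcript length and library depth. Each table has 18398 rows, no header and no stated unit, and RPKM was deduced from values that fall on whole multiples of 1 read once multiplied by transcript length. The submitters' processing notes name CASAVA 1.8.2, TopHat2 2.0.9 and the build hg19, without roles. The P450 members, gene lists and tests were chosen with earlier results of these data known. No sequence or position was taken from hg19: positions and transcript sequences are from GENCODE release 29 (GRCh38) and promoters from RefSeq (GRCh38.p14), where 16 of the 52 members had no entry.

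Differences were taken on the log2(RPKM + 1) scale, which understates the change of low genes. A gene was named with its values if it reached 1 RPKM in at least 1 library, which 22 members did (1 of them is counted but not reported here), and the 3 members with the widest gap between the lines in their siRNA change were described for that gap. Within a line there is 1 library per condition, so a 2-fold difference was counted without a test. A model over all 4 libraries was fitted with limma 3.58.1 (R 4.3.3), with cell line and siRNA as terms (eBayes with a trend, Benjamini-Hochberg over 12148 genes, called at an adjusted p under 0.05). The study's own test for these libraries is not described in enough detail to repeat. The fit has 1 residual degree of freedom and 7.48 prior degrees of freedom. Each p-value sets the mean difference of a term against how unevenly the siRNA acted in the 2 lines, eased by the spread over all genes. The p-values do not measure the spread of repeated transfections. Reads behind a value were estimated from RPKM, GENCODE transcript length and the library's constant of 12197606 to 13384836 reads. The counting SD from them covers counting error only and is off where the authors used another length. The fit was tried on simulated libraries, with 200 genes changed by the siRNA alike in both lines and 200 others changed between lines. The changed genes all had many reads, and only a small random spread was added to each library. The trial thus says nothing about low genes or about the spread of repeated transfections. Python 3.11.15 with numpy 2.4.6 and pandas 2.3.3 was used for the rest.

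Alternatives were a pseudocount of 0.1 RPKM, no minimum or a minimum of 5 RPKM, upper-quartile scaling, quantile normalization and, for limma, a minimum of 1 RPKM in each line, no trend, and leaving out either term.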

Additional observations from a re-analysis of the deposited data

Results flagged for a closer look

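For 7 P450 genes the value with CDCA8siRNA lay above the control in one line and below it in the other. The difference between the lines was not tested, since each condition has 1 library. CYP27A1 changed by -0.58 in Huh1 and 0.12 in Huh7 on the log2(RPKM + 1) scale, and their gap was 4.10 times its counting SD. CYP4V2 changed by -0.18 in Huh1 and 0.38 in Huh7, CYP2J2 by 0.19 and -0.27, and CYP2B6 by -0.19 and 0.17, with gaps of 2.30, -2.41 and 2.33 counting SDs. CYP27B1 changed by -0.11 and 0.25, CYP39A1 by -0.28 and 0.0634, and CYP4F3 by -0.13 and 0.0168, with gaps of 1.60, 1.5 and 1.07 counting SDs. Among the 22 genes the remaining 15 had the same direction in both lines, but for some the direction in Huh7 rests on few reads. About 1 read stood behind each Huh7 value of CYP4F12 and at most about 1 behind those of CYP24A1. For CYP4F11 it was about 5 and 3 reads, and for CYP2A6 about 2 and 3.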

How the results depend on the processing

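The counts of P450 genes 2-fold different between the lines stayed within 1.5 times their values of 19 and 17 under all 5 alternatives, although CYP26B1 was no longer 2-fold higher with CDCA8siRNA after upper-quartile scaling or quantile normalization. Quantile normalization shifted the median line difference of all genes compared by -0.13 with either siRNA. After CDCA8siRNA in Huh1, the count of 0 members became 1 (CYP26B1) with a pseudocount of 0.1 RPKM, and in Huh7 the count of 1 became 0 with a minimum of 5 RPKM, which CYP1B1 does not reach. For limma's siRNA term the 1 called member became 0 with no minimum, 0 without the trend and 0 without the line term. The 20 members called for its line term became 13 with a minimum of 5 RPKM and 10 with 1 RPKM in each line. Fewer members were tested in both cases. With no minimum 16 members were called, among them CYP4F2 and CYP8B1, and 6 of the 20 were not. CYP8B1 had about 3 reads at most in any library and a line difference of -0.05 with either siRNA, so its call carries little weight. Some coefficients that limma did not call changed sign. That of CYP2B6 for the siRNA went from -0.01 to 0.14 with a pseudocount of 0.1 RPKM, that of CYP27B1 from 0.07 to -0.0164 with quantile normalization, and that of CYP4V2 for the line from 0.06 to -0.0143 with upper-quartile scaling and -0.20 with quantile normalization. Over all genes, the 2-fold counts after CDCA8siRNA were 164 in place of 54 in Huh1 and 422 in place of 182 in Huh7 with a pseudocount of 0.1 RPKM. The 776 genes that limma called for the siRNA became 0 with no minimum, 45 without the trend, 0 without the line term, 1287 with upper-quartile scaling and 1308 with quantile normalization, and the 8654 called for the line became 5433 with no minimum. The cause of these changes was not tested. The line term of the fit pairs the siRNAs within each line, and the fit without it is the unpaired alternative. No further pairing was possible, because the groups hold 1 library each and so no replicate numbers to pair by. For the same reason no replicate could be left out. Depth limits the low members: about 10 reads or fewer stand behind many Huh7 values.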
